A study of Solanum pimpinellifolium with 72 samples.

Results

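JOINTLESS (J, Solyc11g010570) and MACROCALYX (MC, Solyc05g056620) are the MADS-box genes described here. They were found by their identifiers, as 2 of the 34727 rows of the expression table, and both were followed through all 72 libraries. The identifiers place J on chromosome 11 and MC on chromosome 5. Both genes passed the filter on low values, which kept 20577 genes that reached 1 RPKM (a read number scaled to gene length and library size) in 4 libraries or more.

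MADS-box genes encode transcription factors that set the identity of meristems and floral organs. In tomato, J, a relative of the Arabidopsis flowering-time genes SVP and AGL24, is needed for the abscission zone, or joint, at which a flower or fruit drops from its pedicel, and it also keeps the inflorescence meristem from returning to leaf production. MC belongs to the APETALA1 and FRUITFULL group, limits sepal growth and is needed for the same joint. The proteins of J, MC and the SEPALLATA-type gene J2 are known to work together in forming the joint.

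The study followed meristems and young flower buds of the wild tomato Solanum pimpinellifolium LA1589 in 6 genotypes to examine how natural alleles that raise locule number act. These were the wild type (WT), near-isogenic lines carrying lc (base changes downstream of the stem cell gene SlWUS), fas (an inversion that breaks the promoter of the peptide gene SlCLV3) or both (lc/fas), RNAi-SlCLV3 with a hairpin against SlCLV3, and HC2, a fas line with an added genomic copy of SlCLV3. The 3 stages were an early sample, which joined inflorescence and floral meristems and very young buds, and buds at 4 and 6 days post initiation (4dpi and 6dpi). Each of the 18 groups had 4 libraries, made from tissue pooled in repeated collections from the plants of a genotype. The hairpin ran from a constitutive promoter, the line that was sequenced is not named in the labels, and the introgressed alleles came from cultivated tomato together with flanking chromosome. Replicates were repeated collections that may share plants, so that p-values measure the spread between collections.

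Recovered read totals ranged from 2.93M to 58.6M reads per library (median 19.1M), with 7 libraries below 10M. Libraries of a group correlated at r = 0.955 to 0.994 over 108 pairs, and no 2 libraries were identical. Early SlCLV3, the target of the hairpin, lay between 4.66 and 10.5 RPKM in WT and between 2.24 and 4.60 RPKM in RNAi-SlCLV3, a change that passed the test (log2 change -0.78, SE 0.23, limma adjusted p = 0.036). At 4dpi and 6dpi SlCLV3 in RNAi-SlCLV3 overlapped WT (log2 differences 0.17 and 0.01, not called). The paper proposes that the SlCLV3 signal left in this line came from incomplete silencing or from transcripts of the hairpin itself. These values therefore may not measure the native gene alone. In HC2 early SlCLV3 was 5.08 to 5.68 RPKM, within the 4.10 to 6.44 RPKM of fas, and was not called against fas (0.10) or WT (-0.38). The paper reports that the pHC2 construct restored bi-locular fruit in fas plants. The 3 meristem markers fixed for the stages, SlWUS, SlCLV3 and the KNOX gene TKN2, summed to 191 to 307 RPKM in early libraries, 65.3 to 139.9 at 4dpi and 37.6 to 102 at 6dpi. Of the green tissue markers, 2 genes for the small subunit of Rubisco (Solyc03g034220 and Solyc02g085950, identities from general knowledge), the sum moved the other way, from 495 to 916 RPKM in early libraries, to 957 to 2077 at 4dpi and 1721 to 3054 at 6dpi. SlWUS was above 0 in every library.

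The counting behind the values of J and MC was unequal. Reads recovered from the step size of the RPKM values numbered 43 to 7081 for J (median 428) and 857 to 11699 for MC (median 3297). The shortest gene length that turned all 72 values into whole reads within 0.01 reads was 188 bases for J and 3339 bases for MC. RPKM divides by that length, so a read of J weighed 17.8 times as much as a read of MC. Ratios of RPKM of 1 gene between libraries do not depend on its length, whereas comparisons of J with MC do. The length also sets how much the pseudocount of 1 RPKM in the fits shrinks a change, which is less for a gene of high RPKM such as J. J2, with an implied length of 112 bases, had the same feature.

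J was most abundant in the early sample and fell at each later stage in every genotype. In WT the early libraries held 1786, 1816, 1588 and 1344 RPKM of J (1633 ± 218, SD, n = 4; values are given in order of replicate number throughout). At 4dpi the WT values were 120.2, 189, 115 and 92.9 RPKM (129 ± 41.6). WT buds at 6dpi had 34.1, 45.4, 32.8 and 20.7 RPKM (33.3 ± 10.1). The 3 stages of WT did not overlap, and the means stood 12.6-fold apart between early and 4dpi and 3.88-fold apart between 4dpi and 6dpi. How many of all genes had their stages apart within WT was not counted.

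The near-isogenic lines followed the same course. The lc line had 1507, 2006, 1521 and 1308 RPKM of J in early libraries (1585 ± 297), then 115, 242, 94.7 and 109 at 4dpi (140.2 ± 68.5), then 26.1, 40.2, 26.9 and 35.4 at 6dpi (32.1 ± 6.83). Replicate 2 of lc at 4dpi stood apart from the other libraries of its group. In fas, J measured 1364, 1527, 1359.9 and 1145 RPKM early (1349 ± 157), 112, 165, 97.1 and 75.5 at 4dpi (112 ± 38.0) and 47.8, 47.6, 28.8 and 28.0 at 6dpi (38.0 ± 11.1). The double line lc/fas gave 1564, 1678, 1685 and 1279 RPKM early (1551 ± 189.8), 121, 113, 111 and 92.9 at 4dpi (109 ± 11.7) and 45.6, 49.5, 34.4 and 34.1 at 6dpi (40.9 ± 7.82). Within each of these lines the stages were again without overlap. The share of all genes with stages apart within a genotype was not counted.

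In the transgenic lines the stages were also apart, a pattern whose share over all genes was again not counted. RNAi-SlCLV3 had 990.4, 1239, 1183 and 1198 RPKM of J in early libraries (1153 ± 111), 139.7, 110.0, 124 and 91.4 at 4dpi (116 ± 20.5) and 47.4, 48.7, 57.7 and 45.0 at 6dpi (49.7 ± 5.56). For HC2 the values were 1465, 1432, 1419 and 1213 RPKM early (1382 ± 115), 80.5, 81.2, 105 and 72.9 at 4dpi (84.9 ± 13.9) and 20.7, 48.02, 36.1 and 24.4 at 6dpi (32.3 ± 12.4). RNAi-SlCLV3 was thus the lowest of the 6 groups early and the highest at 6dpi, by its mean. Over all genotypes the 24 early libraries held 990.4 to 2006 RPKM, the 24 libraries at 4dpi 72.9 to 242 RPKM and the 24 at 6dpi 20.7 to 57.7 RPKM. All 24 libraries at 4dpi lay below all 24 early libraries, which held for 1.74% of tested genes. All 24 at 6dpi lay below all 24 at 4dpi, which held for 0.282%. Both together, a full order from early to 6dpi, held for 18 of the 20577 tested genes (0.0875%).

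MC also declined from stage to stage, over a much narrower range and with overlapping libraries. Early WT libraries held 83.0, 93.9, 96.2 and 74.2 RPKM of MC (86.8 ± 10.2, SD, n = 4). The values were 47.5, 74.7, 61.1 and 44.1 at 4dpi (56.9 ± 14.0), and 35.2, 49.7, 51.1 and 44.6 at 6dpi (45.1 ± 7.20). Between early and 4dpi the WT libraries overlapped by a single value, the 74.7 RPKM of replicate 2 at 4dpi against the 74.2 RPKM of replicate 4 early, and 4dpi overlapped 6dpi broadly.

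Levels of MC in lc were 73.7, 109, 76.0 and 68.8 RPKM early (81.9 ± 18.4), 47.9, 101, 57.8 and 51.8 at 4dpi (64.6 ± 24.6) and 31.7, 45.6, 49.8 and 45.9 at 6dpi (43.3 ± 7.94). Those in fas were 67.1, 85.1, 79.8 and 68.6 RPKM early (75.1 ± 8.73), 43.3, 63.7, 60.6 and 45.5 at 4dpi (53.3 ± 10.4) and 37.8, 44.6, 50.3 and 40.6 at 6dpi (43.3 ± 5.40). The lc/fas line held 76.1, 83.7, 88.8 and 67.6 RPKM early (79.1 ± 9.29), 41.4, 58.0, 54.1 and 46.0 at 4dpi (49.9 ± 7.55) and 38.9, 47.0, 45.3 and 46.9 at 6dpi (44.5 ± 3.83). In fas and lc/fas the early libraries all lay above those at 4dpi, whereas in lc replicate 2 at 4dpi reached into the early range. How many of all genes were apart in this way within a genotype was not counted.

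The MC values of RNAi-SlCLV3 were 59.4, 77.4, 78.0 and 78.7 RPKM early (73.4 ± 9.33), 38.8, 55.8, 63.3 and 48.7 at 4dpi (51.6 ± 10.4) and 31.8, 44.5, 49.8 and 38.1 at 6dpi (41.0 ± 7.80). HC2 had 78.6, 88.2, 83.6 and 70.6 RPKM early (80.2 ± 7.54), 42.0, 64.1, 59.8 and 47.5 at 4dpi (53.4 ± 10.3) and 37.4, 54.6, 48.5 and 37.0 at 6dpi (44.4 ± 8.67). The early and 4dpi libraries overlapped in RNAi-SlCLV3 and were apart in HC2, with the share of all genes again not counted. Across genotypes MC spanned 59.4 to 109 RPKM in the early libraries, 38.8 to 101 at 4dpi and 31.7 to 54.6 at 6dpi. All 24 early libraries lay above all 24 at 6dpi, which 686 of the tested genes (3.33%) shared.

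MC carried a pattern by replicate number that recurred across the genotypes. Replicate 1 lay below the mean of its group in 6 of 6 genotypes at each stage, with an average of 0.917 of the group mean early, 0.793 at 4dpi and 0.813 at 6dpi. Replicate 2 lay above it in 6 of 6 genotypes at each stage, with 1.13, 1.25 and 1.09 of the group mean. For J the pattern was partly different: replicate 2 was highest on average at each stage (1.12, 1.27 and 1.26 of the group mean), replicate 4 lowest (0.873, 0.777 and 0.826), and replicate 1 close to the mean (0.997, 1.00 and 0.967). Whether equal numbers stand for the same collection week in different genotypes is not stated in the sources used here.

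**Figure D1:**
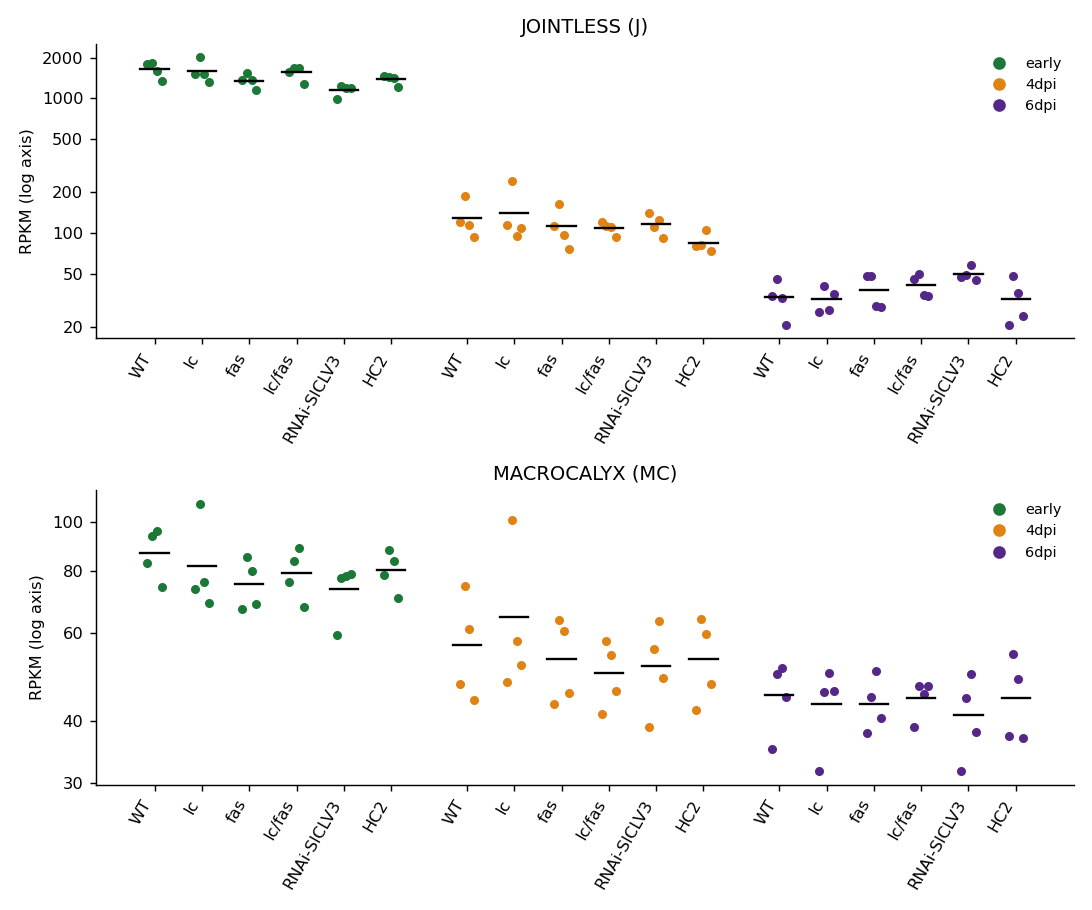
RPKM of J (top) and MC (bottom) in each of the 72 libraries on log axes, by genotype and stage. Points are single libraries, in order of replicate number from left to right, and bars are the means of 4. The stages of J form separate bands, at 990.4 to 2006, 72.9 to 242 and 20.7 to 57.7 RPKM, while those of MC overlap between neighbouring stages.

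Ordered by mean RPKM, the 18 groups of J ran from WT early (1633 RPKM) down to lc at 6dpi (32.1 RPKM). Of the 17 pairs of neighbours in this order, 15 overlapped and 2 did not: the step from RNAi-SlCLV3 early (1153 RPKM) to lc at 4dpi (140.2 RPKM), and the step from HC2 at 4dpi (84.9 RPKM) to RNAi-SlCLV3 at 6dpi (49.7 RPKM). Early groups came in the order WT, lc, lc/fas, HC2, fas and RNAi-SlCLV3. At 4dpi the order was lc, WT, RNAi-SlCLV3, fas, lc/fas and HC2, and at 6dpi RNAi-SlCLV3, lc/fas, fas, WT, HC2 and lc. MC ran from 86.8 RPKM in WT early to 41.0 RPKM in RNAi-SlCLV3 at 6dpi, its groups were also sorted by stage, and all 17 neighbouring pairs overlapped.

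The first comparison asked how far the genes changed between the stages, by limma on log2(RPKM + 1) with all 72 libraries, where fold changes of low genes are understated. J fell by 3.67 on the log2 scale between early and 4dpi over the 6 genotypes (SE 0.09, adjusted p = 1.4e-40). It then fell by 1.58 between 4dpi and 6dpi (SE 0.09, adjusted p = 4.4e-22), and the change from early to 6dpi was -5.25 (SE 0.09, adjusted p = 4.1e-49). The fall was called at each step in 6 of 6 genotypes. Within single genotypes the share of tested genes called lower was 8.6% (RNAi-SlCLV3) to 21.7% (lc) from early to 4dpi, with 16.3% in WT, 15.6% in fas, 9.36% in lc/fas and 14.5% in HC2. It was 1.7% in WT, 3.44% in lc, 1.73% in fas, 1.32% in lc/fas, 1.21% in RNAi-SlCLV3 and 2.11% in HC2 from 4dpi to 6dpi. From early to 6dpi it was 16.9%, 16.8%, 15.7%, 14.5%, 13.9% and 15.9% in the same order. Over the genotypes, 45.3% of the tested genes were called lower at 4dpi than early, 11.9% lower at 6dpi than at 4dpi and 39.9% lower at 6dpi than early, so that a call by itself was common. The median change of all tested genes was -0.09, 0.04 and -0.06 for the same steps.

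By size the fall of J was extreme. From early to 6dpi it ranked first among the 20577 genes over the genotypes and in each genotype but RNAi-SlCLV3, where it ranked 2. From early to 4dpi over the genotypes it ranked 2, and from 4dpi to 6dpi it ranked 10. The first rank depended on the pseudocount, which shrinks the changes of weakly expressed genes, and with a pseudocount of 0.1 in place of 1 the ranks were 8 from early to 6dpi and 17 from early to 4dpi.

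Among the genotypes the early to 4dpi change of J ranged from -3.31 in RNAi-SlCLV3 to -4.02 in HC2 (SE 0.23 each). Between 4dpi and 6dpi it ranged from -1.20 in RNAi-SlCLV3 to -2.01 in lc, with -1.93 in WT. As ratios of mean RPKM these were 9.92-fold to 16.3-fold for the first step and 2.34-fold to 4.36-fold for the second. From early to 6dpi the ratio was 49.1-fold in WT, 49.3-fold in lc, 42.8-fold in HC2, 37.9-fold in lc/fas, 35.5-fold in fas and 23.2-fold in RNAi-SlCLV3.

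MC fell by 0.55 on the log2 scale between early and 4dpi over the 6 genotypes (SE 0.07, adjusted p = 2.5e-09), by 0.31 between 4dpi and 6dpi (SE 0.07, adjusted p = 0.00049) and by 0.85 from early to 6dpi (SE 0.07, adjusted p = 4.6e-16). The last of these was called in 6 of 6 genotypes, with ratios of mean RPKM of 1.73-fold to 1.92-fold, and ranked 525 of 20577 by size of the fall. Within genotypes the early to 4dpi step was called in 5 of 6, from -0.50 in fas to -0.66 in lc/fas. In lc the change was -0.38 (SE 0.18, adjusted p = 0.091). It was called there in a fit with the replicate number as a block (adjusted p = 0.0030) and without replicate 2 of lc at 4dpi (log2 change -0.61, adjusted p = 0.0064).

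Some of these single-genotype calls of MC rested on few libraries. In fas the early to 4dpi call (adjusted p = 0.029) was lost without replicate 2 or 3 early or replicate 1 or 4 at 4dpi, and in RNAi-SlCLV3 (adjusted p = 0.033) without replicate 2, 3 or 4 early or replicate 1 or 4 at 4dpi (adjusted p up to 0.16 for single libraries). Between 4dpi and 6dpi the change of MC was called in lc (log2 change -0.52, SE 0.18, adjusted p = 0.043) and in no other genotype without the block, where the values ran from -0.15 in lc/fas to -0.32 in RNAi-SlCLV3. The call in lc was lost without replicate 2 of lc at 4dpi (-0.29, adjusted p = 0.45) and also without replicate 1, 2 or 4 of lc at 6dpi, whereas the change in WT (-0.31, adjusted p = 0.35) was called with the block (adjusted p = 0.041). Whether MC changed differently between stages in lc than in WT was tested directly. Neither difference was called (0.25 and -0.21, SE 0.25, limma adjusted p = 0.96 and 1).

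**Figure D2:**
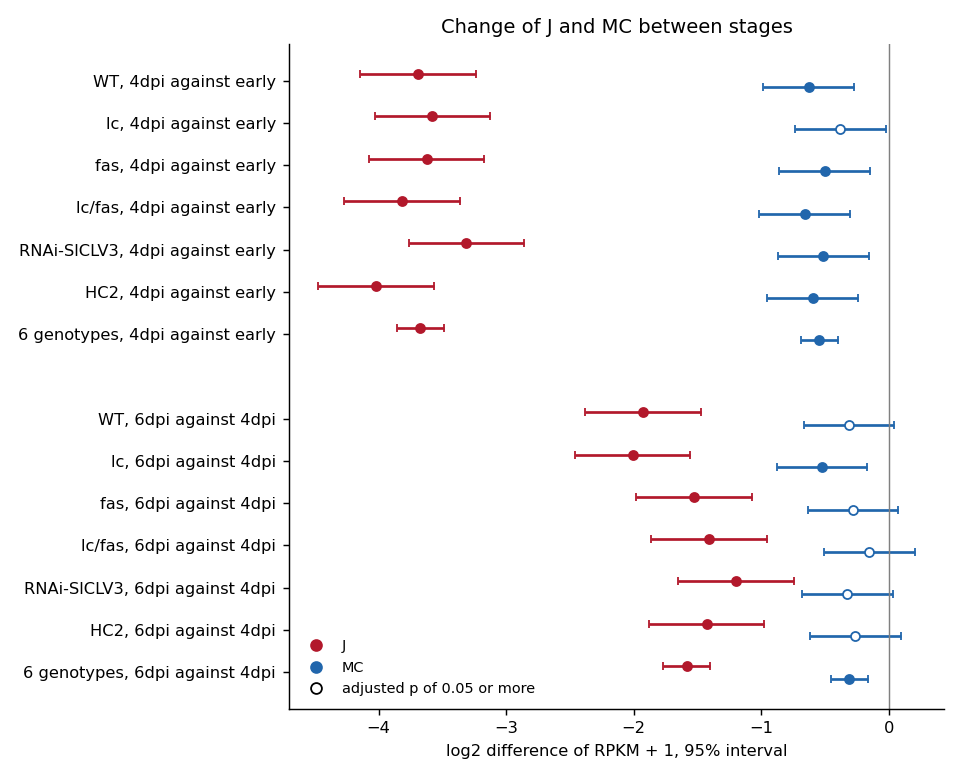
Change of J (red) and MC (blue) between consecutive stages in each genotype and over the 6 genotypes, as log2 difference of RPKM + 1 with unadjusted 95% intervals from the limma fit. Filled points passed an adjusted p of 0.05. J fell in every genotype at each step, and the intervals of MC lie much nearer to 0.

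Since the samples were whole meristems and buds, fewer cells that express J or MC and less RNA of the gene per cell cannot be told apart. Meristem markers moved in the same direction as J and MC: 3 of 3 were called lower at 4dpi than early and 3 of 3 lower at 6dpi than at 4dpi, with log2 changes over the genotypes of -2.09 and -0.58 for SlWUS, -1.55 and -0.44 for SlCLV3 and -1.16 and -0.72 for TKN2. Of all tested genes 45.3% and 11.9% were called lower at these steps. Both green tissue markers were called higher at each step, beside 21.7% and 26.1% of all tested genes. The part of these tissue proportions in the fall of J and MC was not tested.

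The ratio between the genes changed with stage. J exceeded MC in RPKM in 24 of 24 early libraries, by 15.2-fold to 21.5-fold (median 18.2), and in 24 of 24 libraries at 4dpi, by 1.27-fold to 3.60-fold (median 2.00). At 6dpi it did so in 8 of 24, with ratios from 0.465 to 1.49 (median 0.851). Counted as reads and not per length, J and MC were nearly equal in early libraries, with 0.854 to 1.21 reads of J for each read of MC, and J was below MC in every later library, with ratios of 0.0713 to 0.203 at 4dpi and 0.0262 to 0.0840 at 6dpi. Which gene has more transcripts in the early sample therefore depended on the gene lengths used, while the decline of the ratio did not.

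The ratio of J to MC in RPKM was compared with WT in 15 tests, 5 genotypes at 3 stages, of which 0 passed after correction (exact two-sided permutation tests of log2((J + 1)/(MC + 1)), 4 against 4 libraries, Benjamini-Hochberg over 15). The smallest p that this design allows is 0.029, so that a call after adjustment would have needed at least 9 of the 15 tests at that value, and the absence of calls carries little weight. That smallest p was reached once, in RNAi-SlCLV3 at 6dpi. There the mean log2 ratio was 0.28 against -0.47 in WT, a difference of 0.75 with 4 of 4 libraries above every WT library (exact p = 0.029, adjusted p = 0.29). The ratio leaned the other way in RNAi-SlCLV3 early (difference -0.26, 3 of 4 libraries below every WT library, exact p = 0.057) and in HC2 at 4dpi (-0.48, 3 of 4 below, exact p = 0.057), each with an adjusted p of 0.29. In the other 12 tests the differences ran from -0.12 to 0.33, with adjusted p of at least 0.86.

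**Figure D3:**
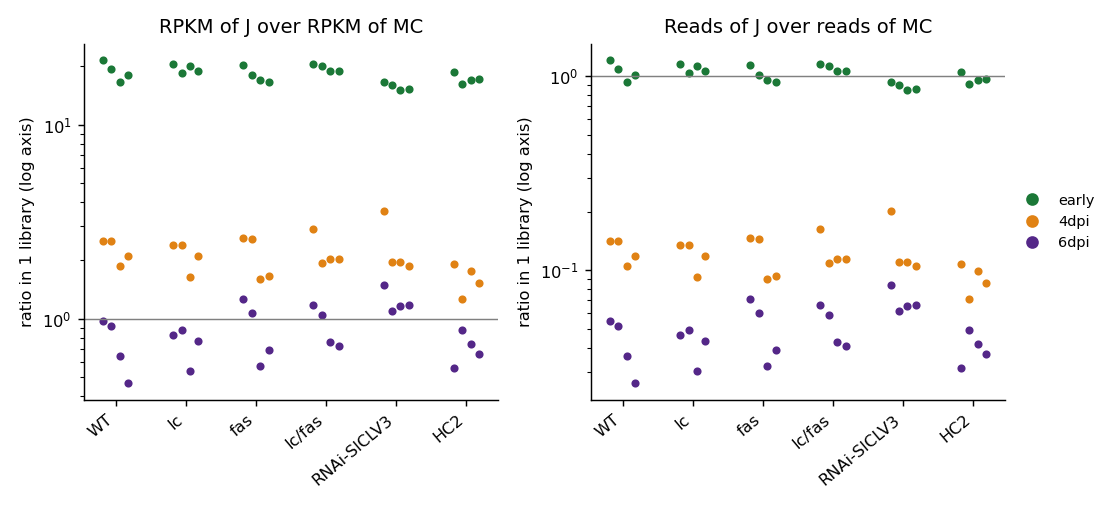
Ratio of J to MC in each library by genotype and stage, on log axes, in RPKM (left) and in recovered reads (right), with a line at 1. Points are single libraries in order of replicate number. The early ratios lie at 15.2 to 21.5 in RPKM and at 0.854 to 1.21 in reads, and the 6dpi libraries of RNAi-SlCLV3 all lie above those of WT.

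The second comparison asked whether the natural alleles changed the genes. Neither J nor MC passed the test in lc, fas or lc/fas against WT at any stage or over the stages, 12 comparisons for each gene that share the WT libraries, and none had an unadjusted p below 0.05. Within a stage the log2 differences of J ran from -0.27 (fas early) to 0.32 (lc/fas at 6dpi), and the 95% intervals reached from -0.73 to 0.77. Those of MC ran from -0.21 (fas early) to 0.15 (lc at 4dpi), with intervals from -0.56 to 0.50. Differences of up to these bounds are therefore not excluded by the data. Few genes of any kind passed in these lines. In order of stage the share was 0.18%, 0.175% and 0.146% in lc, 0.0583%, 0.0194% and 0.0243% in fas, and 0.36%, 0.267% and 0.18% in lc/fas, and over the stages it was 0.539%, 0.0826% and 1.02%.

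Over the 3 stages the differences of J from WT were -0.00 in lc, -0.10 in fas and 0.02 in lc/fas (SE 0.13 each), and those of MC -0.01, -0.11 and -0.10 (SE 0.10 each). In a factorial fit on the 48 libraries of WT, lc, fas and lc/fas, the genotype term was not called for J (moderated F test by limma, adjusted p = 0.95) or MC (adjusted p = 0.85) at the study's threshold of 0.1, at which 1.66% of genes passed. The genotype by stage term gave unadjusted p of 0.51 for J and 0.83 for MC by the same tool, against a threshold of 0.001 that 0.0875% of genes passed.

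Adding one allele to the other left the genes within the spread of the replicates. Against fas, lc/fas differed by 0.01 to 0.20 in J and by -0.09 to 0.07 in MC within the stages. Against lc, the same line differed by -0.26 to 0.34 in J and by -0.31 to 0.06 in MC. The most negative value of MC, -0.31 at 4dpi (SE 0.18, limma adjusted p = 0.44), was set against the lc group that holds the high replicate 2. None of these comparisons was called for either gene. Against fas, 0.17%, 0.17% and 0.136% of tested genes passed at the 3 stages and 0.491% over them, and against lc 0.0875%, 0.0292%, 0.00972% and 0.238%.

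The third comparison concerned the transgenic lines. In RNAi-SlCLV3 the mean of J in early libraries differed from WT by -29.4%. None of the 4 libraries reached the lowest WT library, which also held for 786 of the tested genes (3.82%). This difference did not pass the test (log2 difference -0.50, SE 0.23, 95% interval -0.95 to -0.04, limma adjusted p = 0.25), in a comparison in which 4.58% of genes passed. At 4dpi the values overlapped (-0.12, SE 0.23, with 3.46% of genes passing). At 6dpi J was 49.5% above WT by the mean, 3 of 4 libraries lay above every WT library, and the fourth, at 45.0 RPKM, lay below only the highest WT library, at 45.4 RPKM. The share of all genes with libraries placed in this way was not counted. The log2 difference was 0.61 (SE 0.23, 95% interval 0.16 to 1.06, limma adjusted p = 0.30, with 1.25% of genes passing). With the replicate number as a block it passed (adjusted p = 0.040). Every same-numbered pair of RNAi-SlCLV3 and WT libraries differed upwards, which only a match of the 45.0 with the 45.4 RPKM library could have prevented.

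The estimates of J in RNAi-SlCLV3 early and at 6dpi, neither called without the block, had opposite signs, and their difference was tested as such. The effect of RNAi-SlCLV3 at 6dpi less its effect early was 1.11 on the log2 scale (SE 0.32, 95% interval 0.47 to 1.75, limma adjusted p = 0.13), where 0.34% of tested genes passed. Without all libraries of replicate 2 the difference was 1.26 and passed (adjusted p = 0.024), and it also passed in a fit with the replicate number as a block (adjusted p = 0.010). The same-numbered pairs of these libraries correlated at 0.074 to 0.549. Between 4dpi and 6dpi the corresponding difference was 0.73 (SE 0.32, unadjusted p = 0.027, adjusted p = 1).

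The summed meristem markers also differed between RNAi-SlCLV3 and WT in buds. At 6dpi they came to 79.1 to 102 RPKM in RNAi-SlCLV3 and 46.3 to 57.9 RPKM in WT, without overlap. At 4dpi the sums were 124 to 139.9 and 65.3 to 94.9 RPKM. J was not called there (log2 difference -0.12, 95% interval -0.57 to 0.34). In early libraries the ranges overlapped, at 204 to 262 and 191 to 292 RPKM. TKN2 made up most of the sum, with a WT mean at 4dpi of 74.7 RPKM against 4.78 for SlWUS and 1.36 for SlCLV3. Of the 3 markers, SlWUS and TKN2 were called higher in RNAi-SlCLV3 at 6dpi (log2 differences 1.41 and 0.66), while SlCLV3 was not (0.01). The part of these markers in the value of J was not tested. The sum of the green tissue markers overlapped between the genotypes at each stage.

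The mean of MC in RNAi-SlCLV3 differed from WT by -15.5%, -9.18% and -9.12% at the 3 stages, with overlapping libraries. The log2 differences were -0.24, -0.13 and -0.14 in order of stage (SE 0.18 each, limma adjusted p of at least 0.54), and -0.17 over the stages (SE 0.10, adjusted p = 0.28). Over the stages 12.9% of all tested genes were called in this line.

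In HC2 the mean of J differed from WT by -34.3% at 4dpi. At that stage 3 of 4 libraries were lower than every WT library, and the share of all genes placed so was not counted. The difference did not pass the test (log2 difference -0.56, SE 0.23, 95% interval -1.02 to -0.11, limma adjusted p = 0.22, with 1.39% of genes passing). Without replicate 2 of WT at 4dpi, at 189 RPKM the highest of its group, the log2 difference was -0.36 (adjusted p = 0.63), and over the left-out libraries it ran from -0.71 to -0.35. The log2 difference was -0.23 early and -0.06 at 6dpi, where 1.39% and 0.943% of genes passed, and -0.29 over the stages (SE 0.13, adjusted p = 0.18), where 6.65% did. Meristem markers summed to 69.9 to 90.7 RPKM in HC2 and 65.3 to 94.9 RPKM in WT at 4dpi. MC in HC2 differed from WT by -0.11, -0.08 and -0.03 at the 3 stages (SE 0.18 each). Against fas, the line that HC2 was made from, J differed by 0.04 early, -0.36 at 4dpi and -0.26 at 6dpi (SE 0.23 each, limma adjusted p of at least 0.69), and MC by 0.00 to 0.10. In these comparisons with fas 1.39%, 0.948% and 0.802% of tested genes passed at the 3 stages and 3.81% over them.

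In all, none of 15 genotype comparisons within a stage was called for J or for MC in the fit without the block, and of these 3 had an unadjusted p below 0.05 for J (RNAi-SlCLV3 early and at 6dpi, HC2 at 4dpi) and 0 for MC. In the same fit none of 15 differences of a genotype effect between stages passed for either gene, with 2 unadjusted p below 0.05 for J, both in RNAi-SlCLV3, and 0 for MC, whose adjusted p was at least 0.96 throughout. Such differences were rare among all genes. Between early and 4dpi they were called in 0.00486% of genes in lc and fas, 0.0194% in lc/fas, 0.17% in RNAi-SlCLV3 and 0.034% in HC2, and between 4dpi and 6dpi in 0% in lc, fas and lc/fas and 0.00972% in both transgenic lines. Between early and 6dpi the shares were 0.00486% in lc, 0.00972% in fas, 0.0146% in lc/fas, 0.34% in RNAi-SlCLV3 and 0.0826% in HC2.

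**Figure D4:**
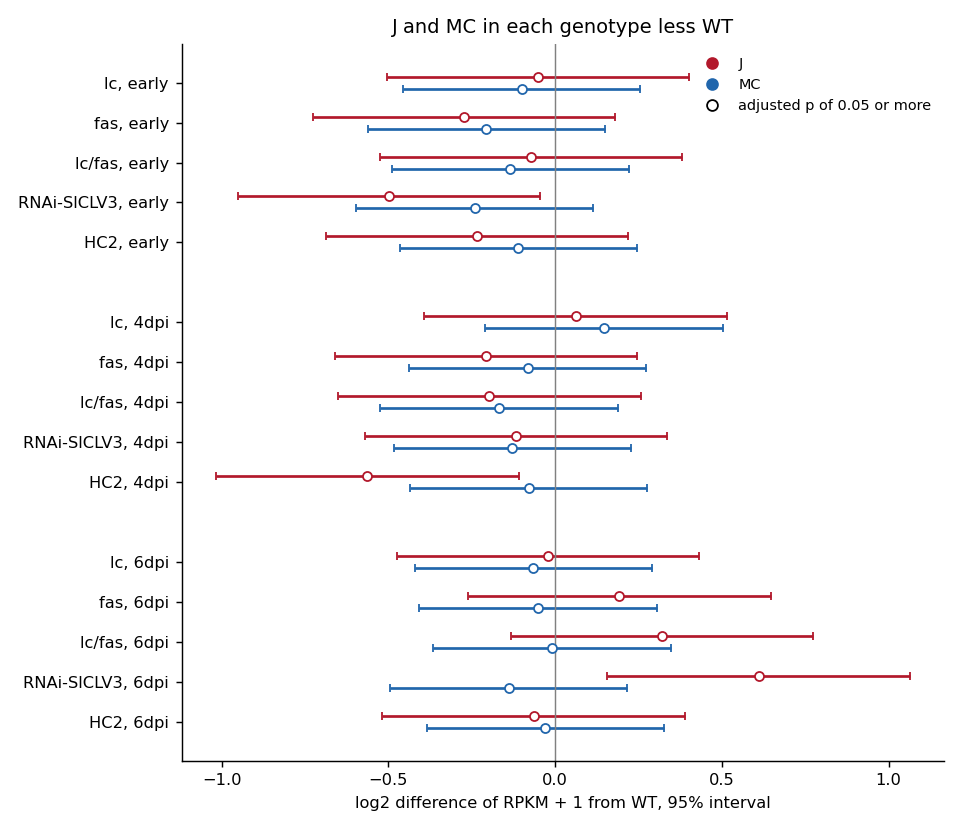
Difference of each genotype from WT in J (red) and MC (blue) at each stage, as log2 difference of RPKM + 1 with unadjusted 95% intervals from limma. Open points had an adjusted p of 0.05 or more, which holds for all 30. The intervals of J exclude 0 in RNAi-SlCLV3 early, HC2 at 4dpi and RNAi-SlCLV3 at 6dpi, before adjustment.

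The genes known to act with J and MC in the joint did not share one course. J2, the SEPALLATA-type partner of J, rose from a median of 709 RPKM over the 24 early libraries to 1091 at 4dpi and stood at 937 at 6dpi. Its change was 0.65 from early to 4dpi (SE 0.04, limma adjusted p = 9.6e-22) and -0.28 from 4dpi to 6dpi, both called, in steps at which 21.7% of genes were called higher and 11.9% lower. Its correlation with J over the 18 group means was -0.70. Since a large fall of J and a rise of J2 met in the same buds, their order of level reversed: medians in RPKM were 1425 for J against 709 for J2 early, and 35.8 against 937 at 6dpi, on the short implied lengths of both genes.

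Of 5 listed partners, J2, the NAC boundary gene GOB, the GRAS gene LS, the MYB gene BL and SlWUS, 3 were called lower and 2 higher (J2 and LS) at 4dpi than early over the genotypes. Of all tested genes 45.3% were called lower and 21.7% higher at that step. All 5 were called lower at 6dpi than at 4dpi, where 11.9% of all genes were called lower and 26.1% higher. The median of the list from early to 6dpi was -1.15, with 4 lower and 1 higher, against -0.06 for all tested genes. BL, which acts in the start of lateral meristems, fell by 1.63 and 1.20 at the consecutive steps, from a median of 65.7 RPKM early to 20.1 at 4dpi and 8.66 at 6dpi.

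Other MADS-box genes moved in either direction from early to 6dpi, a step at which 28% of all tested genes were called higher and 39.9% lower. Of 4 SEPALLATA-type genes, which are co-factors of floral organ identity, 3 were called higher at 6dpi than early (TM5 by 2.62, TM29 by 2.40 and EJ2 by 1.00 on the log2 scale) and 1 lower (LIN, -0.99). The FRUITFULL-type genes FUL2 and MBP20, the group of MC, were both called lower (-0.46 and -1.55), and with the other 2 listed identifiers of that type, which the study's tables do not pair with an Arabidopsis gene, 3 of 4 were called lower and 1 higher. Of the petal, stamen and carpel genes, of B and C class, 5 of 5 were called higher (6 of 6 with an unpaired identifier), by 2.41 (TM6) to 6.17 (SlGLO2), with a median of 5.43. The SVP-type gene Solyc04g076280, in the group of J, had at most 3.80 RPKM in any library and was not called (0.22, limma adjusted p = 0.079), while the unpaired identifier of that list was called lower, so that 1 of 2 was lower and 0 higher. In the SEPALLATA-type list the unpaired identifier was not called, which left 3 higher and 1 lower of 5.

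Inflorescence genes were mixed. From early to 6dpi the WOX gene S fell by 2.13, the SOC1-type gene AGL20 by 0.76 and the antiflorigen SP changed by -2.03, while the F-box gene AN rose by 1.06, so that 3 of 4 were called lower and 1 higher, with a list median of -1.40, beside 39.9% of all genes called lower and 28% higher. With 3 unpaired identifiers of the list the count was 5 lower and 2 higher of 7. In the early RNAi-SlCLV3 libraries, where J did not pass the test, these 4 were called against WT, AN (-1.17) and S (-1.14) lower and SP (2.78) and AGL20 (1.07) higher, and the 3 unpaired identifiers were not, beside 4.58% of all genes called. Among the joint partners J2 (-0.34) and LS (-0.61) were called lower there and the list median was -0.38, against 0.01 for all genes. The values of SP rested on few reads, with a median of 3 (0 to 105) over the 72 libraries. Its WT means were 0.471 RPKM early (SD 0.574), 0.996 at 4dpi and 0.197 at 6dpi. The SP change of -2.03 over the genotypes therefore came mainly from the other lines, and its 2.78 was set against this low early WT mean.

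**Figure D5:**
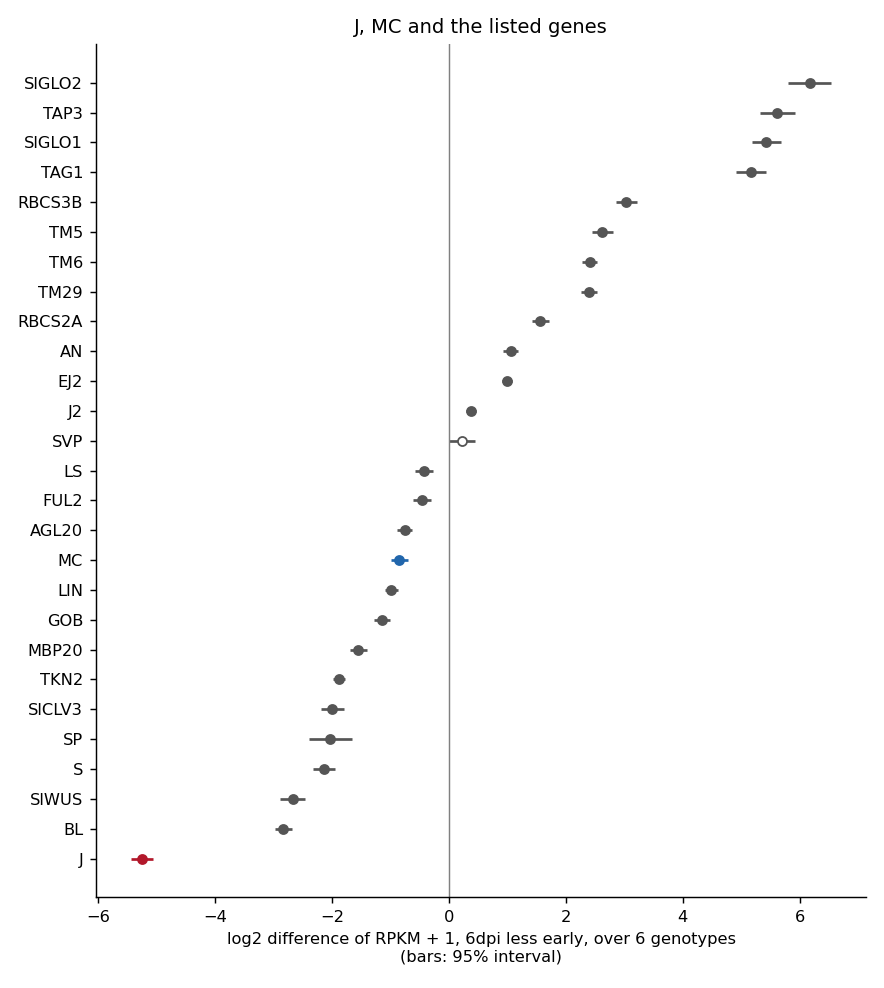
Change from early to 6dpi over the 6 genotypes for J (red), MC (blue) and the listed genes (grey), as log2 difference of RPKM + 1 with unadjusted 95% intervals from limma. Filled points passed an adjusted p of 0.05. J had the lowest value, -5.25, MC lay at -0.85 between AGL20 and LIN, and SlGLO2, at 6.17, had the highest.

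The genes whose pattern was most like that of J, by Pearson correlation of log2(RPKM + 1) over the 18 group means, were Solyc04g010330 (r = 0.996) and Solyc08g029090 (r = 0.995), neither of which the files name. BL ranked 39 of 20576 (r = 0.985), MC 108 (r = 0.976) and J2 16629. For MC the most similar gene was BL (r = 0.989), and J ranked 29. Over single libraries, 72 in number, the likeness of BL to MC was 0.886 and ranked 27, and that of MC to J was 0.861 and ranked 408. The points share genotype and stage groups, so a steady fall over the stages alone gives a high value.

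Within groups J and MC also varied together. After each of the 18 group means was subtracted, J and MC deviations correlated at r = 0.55 over the 72 libraries, with 0.86 among the 24 early libraries, 0.63 among those at 4dpi and 0.35 among those at 6dpi. Both genes were measured in the same library and share its depth and tissue, and the values are given as a description. The library that stood apart, replicate 2 of lc at 4dpi, was high in J (242 RPKM) and in MC (101 RPKM). It also had the highest values of its group for SlWUS (13.4 against 3.52 to 5.77 RPKM in the other 3), SlCLV3 (5.56 against 2.32 to 2.67), TKN2 (117 against 71.5 to 89.1) and BL (49.0 against 17.5 to 25.3). Of the green tissue markers, Solyc03g034220 was lowest there (985 against 1183 to 1444 RPKM) and Solyc02g085950 was within the range of the others. The part of tissue proportions in that library was not tested.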

How the data were processed

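RNA-seq of 72 libraries (6 genotypes, 3 stages, 4 replicates) was deposited as RPKM per gene. Per the labels and the study's methods, the authors aligned strand-specific reads with TopHat2 and Bowtie2 (versions not given in the sources used here) to the tomato genome with ITAG annotation and counted sense reads. Read totals were recovered from the step size of the deposited RPKM, since counts were not used here. log2(RPKM + 1) was fitted with limma 3.58.1 (trend, R 4.3.3) on 18 group means for the 20577 of 34727 genes that reached 1 RPKM in 4 libraries or more. Tests were two-sided, Benjamini-Hochberg adjusted over all tested genes within a comparison, and called below 0.05. The study stated its models for counts of other libraries; the factorial terms were fitted here by limma. The fit was run on simulated data with independent noise in each library, for RNAi-SlCLV3 against WT at the early stage only. That run does not cover libraries that deviate together.

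The genes, lists and tests were chosen with earlier results of these data known. Named genes were J, MC, up to 6 passing members of each list by size of change, and the genes most like J and MC. The expression table gives identifiers alone, and the study's text names some of them. Of 33 list genes, 23 are paired with an Arabidopsis gene in the study's tables and were used with their published names, together with 2 green tissue markers; the other listed identifiers enter only as counts. No sequence is shown. Same-numbered libraries deviated together (mean r = 0.31). The mean of -0.10 for other numbers at the same stage largely follows from this, since deviations from a group mean cancel within the group. Every same-numbered pair exceeded 0.1 in 49 of 68 comparisons, where the number was taken to pair the samples. This pairing comes from the data and is not stated by the labels. Alternatives were other pseudocounts, filters, scalings, the replicate block, only the groups compared, and leaving out libraries.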

Additional observations from a re-analysis of the deposited data

Results flagged for a closer look

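Of 36 groups of 4 libraries (18 for J and 18 for MC), 2 held a library farther from the rest than Dixon's 95% critical value for 4 samples allows, which chance gives in about 1 of 20 groups. J in lc at 4dpi was 242 RPKM in replicate 2, at a gap of 0.863 of the group's range. MC in RNAi-SlCLV3 early was 59.4 RPKM in replicate 1, below 77.4 to 78.7 RPKM in the others, at a gap of 0.936 of the range.

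The estimates of J in RNAi-SlCLV3 against WT had opposite signs early and at 6dpi, and neither was called without the replicate block (limma adjusted p = 0.25 and 0.30). Every same-numbered difference from WT was negative early and positive at 6dpi. The difference of the effects was 1.11 on the log2 scale and had a limma adjusted p of 0.13 without the replicate block and 0.010 with it. The lowest correlation of a same-numbered pair of these libraries was 0.074, under the 0.1 taken as pairing. The early sign follows from 4 of 4 libraries lying below every WT library. Likewise the sign at 6dpi nearly follows from 3 of 4 libraries lying above every WT library.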

How the results depend on the processing

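Of 54 results, 36 kept their direction and their side of the threshold under every alternative run, among them the 15 stage changes of J, and no result reversed. The 0 calls of the ratio tests, which are among the 36, could hardly change, since the smallest p is 0.029 for 4 against 4 libraries and 0.057 for 3 against 4. The numbers of the libraries do not pair every comparison. With the replicate block, MC from early to 4dpi in lc (-0.38, adjusted p = 0.0030), MC from 4dpi to 6dpi in WT (-0.31, adjusted p = 0.041) and J in RNAi-SlCLV3 against WT at 6dpi (0.61, adjusted p = 0.040) passed, in comparisons whose numbers pair the samples. It also passed J in HC2 over the stages (-0.29, adjusted p = 0.044), MC in RNAi-SlCLV3 over the stages (-0.17, adjusted p = 0.038) and the stage difference of J in RNAi-SlCLV3 (1.11, adjusted p = 0.010). In the latter comparisons the weakest same-numbered pair correlated at 0.015 to 0.074 and the strongest at 0.450 to 0.549. The block thus moved the count of called comparisons from 0 to 1 for J within a stage, over the stages and between stages, and for MC over the stages, and it changed no other call. It leaves the paired exact test of the ratio with 0 calls, whose smallest p is then 0.125. Median-of-ratios scaling lost MC from early to 4dpi in fas (-0.41, adjusted p = 0.089) and RNAi-SlCLV3 (-0.46, adjusted p = 0.062). MC from 4dpi to 6dpi in lc (-0.52) was lost without the filter (adjusted p = 0.057) and with only the groups compared (adjusted p = 0.37). Leaving out libraries changed calls of MC from early to 4dpi in WT (-0.76 to -0.52), lc (-0.61 to -0.23), fas (-0.59 to -0.41), RNAi-SlCLV3 (-0.62 to -0.38) and HC2 (-0.69 to -0.49), and from 4dpi to 6dpi in lc (-0.64 to -0.29). In WT and HC2 the loss came without all libraries of replicate 4 (adjusted p = 0.059 and 0.056). For J it changed RNAi-SlCLV3 against WT at 6dpi (0.41 to 0.78) and its stage difference (0.91 to 1.27), each called only without all libraries of replicate 2 (adjusted p = 0.037 and 0.024), so the counts of called comparisons ran from 0 to 1. Among 2282 alternative values of genotype comparisons that did not pass, 230 had the other sign, and 0 of these passed. The rank of J's fall moved from 1 to 8 and from 2 to 17 with a pseudocount of 0.1, and that of MC from 525 to 299 with a mean of at least 5 RPKM. The causes were not tested. Depth limits J most at 6dpi, where as few as 43 reads stand behind a value.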
